A study of Mus musculus with 6 samples.

Results

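The genes described here are 9 members of the complement system, namely *C1qa*, *C1qb*, *C1qc*, *C1s1*, *C2*, *C4b*, *C3*, *Cfb* and *Cfd*. Every probe of the array annotated with one of these symbols was taken, which gave 16 of the 56605 probes that are not controls. Their RNA was measured in the myocardium of male C57BL/6J *Clk4*-cKO mice. In these mice tamoxifen activates α-MHC-MerCreMer, which deletes the floxed *Clk4* gene in cardiomyocytes, and mice of both groups carried this deletion. The control group had received AAV NEXN-WT, an AAV9 vector with wild-type mouse *Nexn* under the CMV promoter, which is not restricted to cardiomyocytes (NEXN-WT, 3 mice). The other group had received AAV NEXN-S437E, the same vector with a glutamate in place of the serine, which mimics phosphorylation (NEXN-S437E, 3 mice). By the study's methods the vector was given intravenously to young mice, at an age below that at which tamoxifen was given, and the labels state neither age nor time of collection. The comparison asks how the myocardial transcriptome differs with the phosphomimetic form of NEXN.

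Complement is a cascade of plasma proteases that marks microbes and cell debris for removal and draws in inflammatory cells. In the classical pathway the recognition molecule C1q, built from 3 kinds of chain, binds its target and activates the proteases C1r and C1s, which cut C4 and C2 into a C3 convertase. In the alternative pathway factor D cuts factor B bound to C3b and forms a second C3 convertase, so both routes meet at C3. The liver supplies most of the plasma proteins, but tissue macrophages are the known source of C1q, fibroblasts and other stromal cells express C1r, C1s, C3 and C4, and adipocytes are the classic source of factor D, also called adipsin.

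Each probe is a 60-base stretch of the transcript, and 7 of them are shown here, from the annotation deposited with the array, because they say which part of each mRNA a value refers to. Capitals mark the bases that a *Cfd* probe shares with the other *Cfd* probe.
C1qa A_51_P181451: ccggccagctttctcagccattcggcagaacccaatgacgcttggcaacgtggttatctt
C1qb A_51_P351860: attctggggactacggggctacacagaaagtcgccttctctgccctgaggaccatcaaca
C4b A_51_P428708: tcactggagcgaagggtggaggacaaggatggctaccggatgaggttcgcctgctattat
C3 A_55_P2038525: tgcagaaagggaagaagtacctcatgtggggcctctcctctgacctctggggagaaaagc
Cfb A_51_P413866: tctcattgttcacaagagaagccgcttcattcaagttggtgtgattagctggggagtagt
Cfb A_66_P138911: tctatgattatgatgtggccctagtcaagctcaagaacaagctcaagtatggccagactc
Cfd A_55_P2744246: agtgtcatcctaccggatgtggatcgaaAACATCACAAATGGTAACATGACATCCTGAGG

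On mm9 the C1q chain genes lie close together on chromosome 4, where the *C1qa* probe is at chr4:136452409-136452468 and the *C1qb* probe at chr4:136436578-136436637, both on the minus strand. The *C4b* probe is at chr17:34866361-34866420 and the *C3* probe at chr17:57343678-57343737, again on the minus strand. The bases of *Cfb* A_51_P413866 span chr17:34993502-34993858, which is 357 bases for a 60-base probe and so crosses a splice junction, and those of *Cfb* A_66_P138911 are at chr17:34994617-34994676. *Cfd* A_55_P2744246 is at chr10:79355274-79355333 on the plus strand and shares 32 bases, its positions 29 to 60 from the 5′ end, with *Cfd* A_51_P156955, so the pair does not give independent readings. No mm9 annotation was used here, so exons and UTRs were not assigned. *C4b* has a near-identical paralog, *C4a*, and *C1s1* has *C1s2*. The array's probes for the paralogs share no run over 7 bases with the *C4b* and *C1s1* probes, but whether the paralog's RNA binds these probes was not tested.

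Values are log2 processed signals after subtraction of each array's 75th percentile, so 0 is the signal at that percentile and 1 unit is a doubling. They compare arrays for one probe and not one probe with another. The 6 arrays were on 1 slide, with the 3 NEXN-WT arrays and NEXN-S437E 1 in slide row 1 and NEXN-S437E 2 and 3 in slide row 2. NEXN-WT 1 stood apart. Over the tested probes its mean absolute difference was 0.384 and 0.439 from the other NEXN-WT arrays, which differed from each other by 0.248, and it was 0.498 to 0.563 from the NEXN-S437E arrays. The cardiomyocyte markers fit the labelled tissue, with all 10 genes of the list (*Myh6*, *Tnnt2*, *Mb* and others) well above background.

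Of the 16 complement probes, 10 probes of 8 genes were well above background on all 6 arrays and were tested, and no tested gene passed either threshold. Across the array 22998 probes were tested with limma. The study's thresholds, a 2-fold change with an unadjusted p under 0.05, called 2.52% of these probes and 0 of the 8 complement genes. A Benjamini-Hochberg adjusted p under 0.05 called 0.161% of the probes and again 0 of the 8 genes. *C1s1*, lower with NEXN-S437E, was the 1 gene with an unadjusted p under 0.05, against 17.2% of all tested probes (6.7% in that direction). It was also the 1 gene whose groups did not overlap, against 27.8% (9.17% in that direction). The log2 fold change was below 0 for 6 of the 8 genes, against 39.2% of all tested probes, and its median was -0.25, beside 0.073 over all 13747 tested genes. This summary depended on the setting. Slide row 2 holds NEXN-S437E arrays only. A fit with the slide row as a block therefore sets NEXN-S437E 1 alone against the NEXN-WT arrays. In that fit 3 of the 8 genes lay below 0 (median 0.045). Without NEXN-WT 1 the number was 4 (median -0.054), and with the authors' normalized values it was 8 (median -0.40). The median was -0.40 without NEXN-S437E 1 and -0.14 without NEXN-S437E 3.

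**Figure D1:**
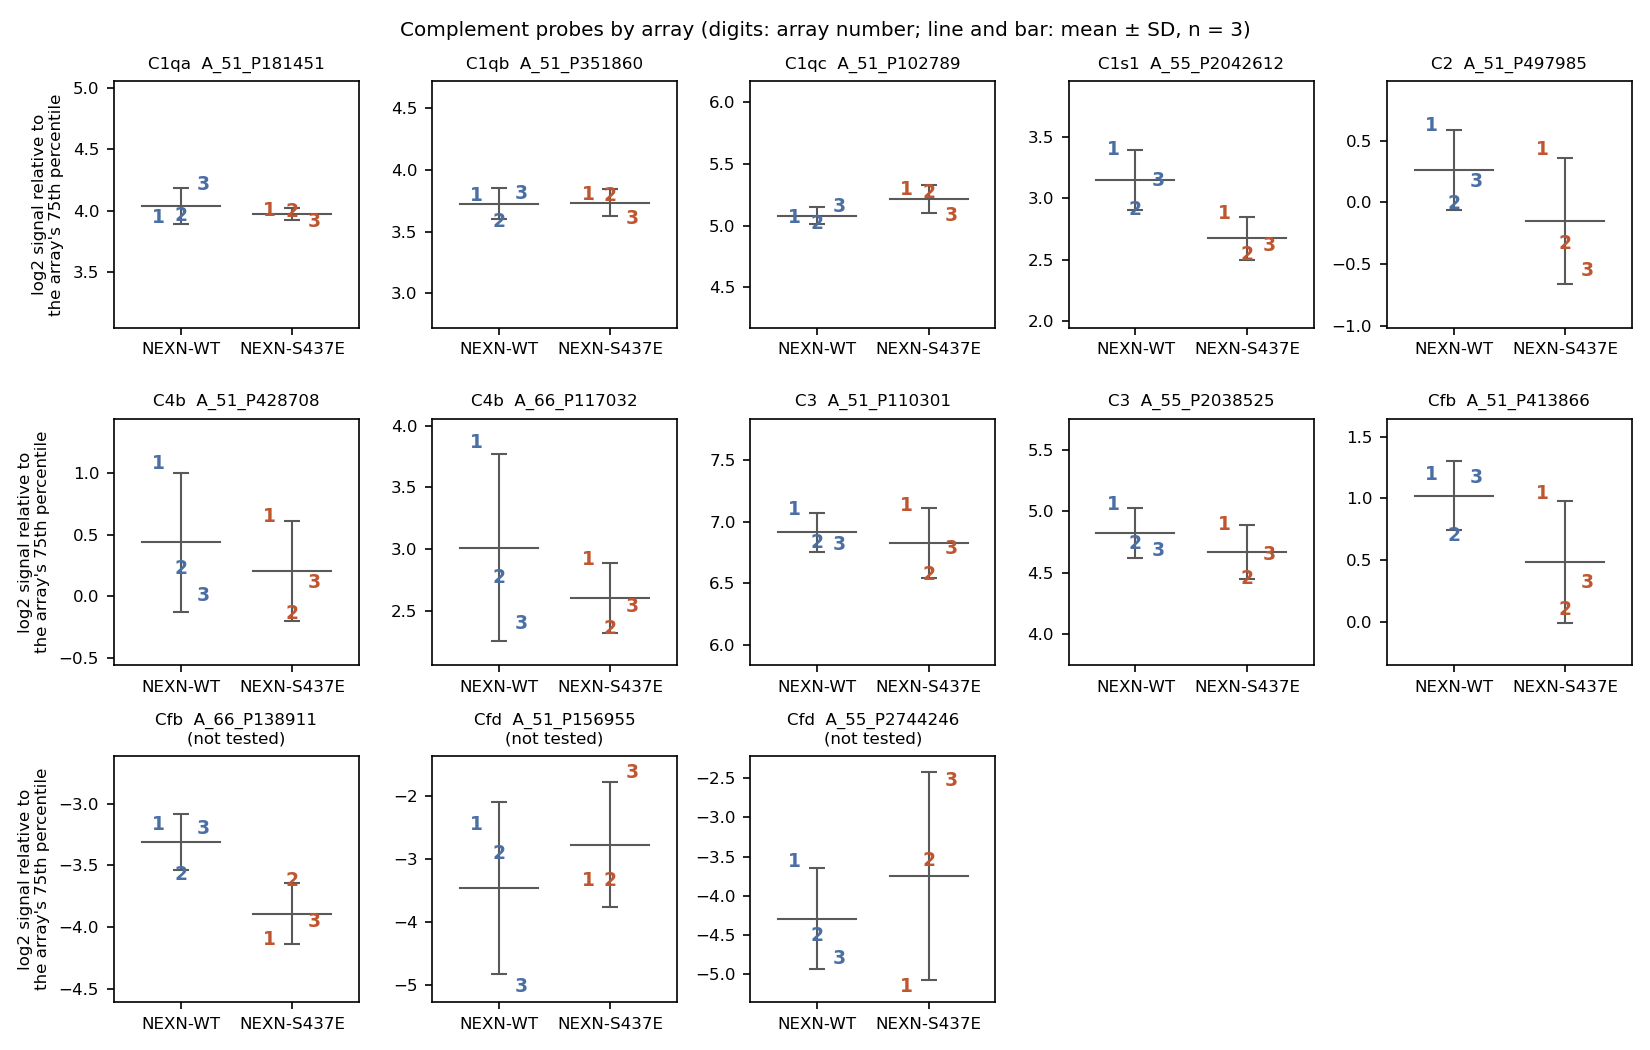
Log2 signal relative to the array's 75th percentile for the 13 complement probes that were well above background on at least 1 array, with the array number of each mouse as the plotted digit and the mean ± SD (n = 3) as line and bar; each panel has its own axis. The C1q panels are nearly flat and *C1s1* is the tested panel without overlap. In the tested *C2*, *C4b*, *C3* and *Cfb* panels NEXN-S437E 1 is the highest of the NEXN-S437E arrays.

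The 3 C1q chains were the least variable of the members, and their levels overlapped between the groups. The *C1qa* probe read 3.95, 3.96 and 4.21 in the NEXN-WT mice and 4.00, 4.00 and 3.92 in the NEXN-S437E mice. The *C1qb* probe read 3.79, 3.58 and 3.81 with NEXN-WT and 3.80, 3.79 and 3.61 with NEXN-S437E. The *C1qc* probe read 5.07, 5.02 and 5.16 with NEXN-WT and 5.29, 5.27 and 5.08 with NEXN-S437E. In each chain the highest NEXN-WT array was NEXN-WT 3 and the lowest NEXN-S437E array was NEXN-S437E 3.

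The difference between the groups was smaller than its standard error (SE) for each chain. The log2 fold change was -0.066 (SE 0.144, adjusted p = 0.825) for *C1qa*, 0.0057 (SE 0.146, adjusted p = 0.986) for *C1qb* and 0.13 (SE 0.140, adjusted p = 0.627) for *C1qc*. The 95% confidence intervals of the fold ran from 0.759 to 1.20 for *C1qa*, 0.795 to 1.27 for *C1qb* and 0.876 to 1.37 for *C1qc*, so a 2-fold change lay outside each of them. The mean of the 3 chains was 4.28 ± 0.104 (SD, n = 3) with NEXN-WT and 4.31 ± 0.0908 with NEXN-S437E. The sign of so small a difference depended on the scaling: with the authors' normalized values it was -0.20 for *C1qa*, -0.12 for *C1qb* and -0.051 for *C1qc*, and there the *C1qa* groups did not overlap (adjusted p = 0.462). A second *C1qc* probe, A_55_P2721747, was not well above background on any of the 6.

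*C1s1*, the protease of the C1 complex that cuts C4 and C2, was the member with the clearest separation. Probe A_55_P2042612 read 3.39, 2.91 and 3.14 in the NEXN-WT mice and 2.87, 2.54 and 2.61 in the NEXN-S437E mice. All 3 NEXN-S437E arrays lay below all 3 NEXN-WT arrays, although NEXN-S437E 1 came close to NEXN-WT 2. The log2 fold change was -0.47 (SE 0.177, 95% confidence interval -0.88 to -0.062), or a level 1.39-fold higher with NEXN-WT (unadjusted p = 0.029, adjusted p = 0.247). The difference did not pass the correction over all probes. With the slide row as a block, which leaves NEXN-S437E 1 alone against the NEXN-WT arrays, it was -0.28. The other *C1s1* probes, A_55_P2162797 and A_66_P123571, were likewise not well above background on any of the 6.

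*C4b* and *C2*, which together make up the classical C3 convertase, varied more from mouse to mouse than between the groups. *C4b* probe A_66_P117032 read 3.87, 2.77 and 2.40 with NEXN-WT and 2.92, 2.36 and 2.53 with NEXN-S437E. NEXN-WT 1 was the highest and the other NEXN-WT arrays lay within the range of the NEXN-S437E group. A log2 fold change of -0.41 was estimated (SE 0.357, adjusted p = 0.554), which was 0.016 without NEXN-WT 1. The second *C4b* probe, A_51_P428708, read 1.08, 0.23 and 0.0055 with NEXN-WT and 0.65, -0.14 and 0.11 with NEXN-S437E, with a log2 fold change of -0.23 (SE 0.313, adjusted p = 0.710) that was 0.090 without NEXN-WT 1.

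*C2* probe A_51_P497985, at chr17:34999575-34999634, read 0.63, -0.0056 and 0.17 with NEXN-WT and 0.43, -0.33 and -0.55 with NEXN-S437E. NEXN-S437E 1 lay within the NEXN-WT range and the other NEXN-S437E arrays lay below it. Its log2 fold change of -0.42 (SE 0.280, adjusted p = 0.452) was -0.70 without NEXN-S437E 1, and 0.16 with the slide row as a block.

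*C3*, whose product is where all the pathways converge, read 7.10, 6.83 and 6.82 with NEXN-WT and 7.13, 6.57 and 6.78 with NEXN-S437E on probe A_51_P110301. Its second probe, A_55_P2038525, read 5.05, 4.73 and 4.68 with NEXN-WT and 4.90, 4.46 and 4.65 with NEXN-S437E. On both probes replicate 1 was the highest array of each group and the groups overlapped. The log2 fold changes were -0.088 (SE 0.185, adjusted p = 0.820) and -0.16 (SE 0.177, adjusted p = 0.655), and the 95% confidence interval of the fold on the first probe ran from 0.699 to 1.27. Under the authors' normalized values the differences were -0.37 and -0.33, and with the slide row as a block 0.22 and 0.072.

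*Cfb* encodes factor B, the protease of the alternative C3 convertase. Its junction-spanning probe A_51_P413866 read 1.19, 0.70 and 1.17 with NEXN-WT and 1.04, 0.10 and 0.32 with NEXN-S437E. NEXN-S437E 2 and 3 lay below every NEXN-WT array, while NEXN-S437E 1 lay among them. The log2 fold change was -0.54 (SE 0.265, 95% confidence interval -1.15 to 0.075, unadjusted p = 0.0777, adjusted p = 0.335), the most negative of the 8 genes. It was -0.81 without NEXN-S437E 1 (adjusted p = 0.244), -0.34 without NEXN-S437E 2, and 0.018 with the slide row as a block. The second *Cfb* probe, A_66_P138911, rose clear of the background on 2 of the NEXN-WT arrays and on 0 of the NEXN-S437E arrays. Its NEXN-WT mean was below the mean of the dimmest signals well above background on the NEXN-S437E arrays, so no fold is given.

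*Cfd*, the protease that cuts factor B, could not be tested. Probe A_51_P156955 was detected on 2 arrays per group and read -2.45, -2.92 and -5.02 with NEXN-WT and -3.34, -3.35 and -1.62 with NEXN-S437E. The overlapping probe A_55_P2744246 was detected on 1 array per group and read -3.56, -4.51 and -4.80 with NEXN-WT and -5.15, -3.55 and -2.53 with NEXN-S437E. NEXN-S437E 3 was the highest array on both probes. The SD within a group was 0.647 to 1.37 on these probes and 0.0484 to 0.762 on the tested complement probes.

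The spread of the members within a group had a common feature. NEXN-S437E 1 was the highest of its group for all 8 tested genes, as it was for 44.5% of all tested probes. NEXN-WT 1 was the highest of its group for 5 genes (*C1s1*, *C2*, *C4b*, *C3* and *Cfb*), against 30.9% of all tested probes, and NEXN-WT 3 for the 3 C1q chains, against 39.1%. The step from NEXN-S437E 1 to the mean of NEXN-S437E 2 and 3 was 0.87 for *C2*, 0.83 for *Cfb*, 0.47 for *C4b*, 0.46 for *C3* and 0.29 for *C1s1*, but 0.045 to 0.12 for the C1q chains and 0.038 at the median of all tested probes. NEXN-S437E 1 was the only array of its group in slide row 1, so this array and the slide row cannot be told apart. It also had the lowest 75th percentile of signal (110, beside 142 to 273 on the other arrays) and the lowest share of spots well above background (41.9%). The summed signal of the 3 tested neutrophil markers, in multiples of each array's 75th percentile, was also highest on it. The sum was 4.51, beside 0.938 and 1.17 on the other NEXN-S437E arrays and 1.1 to 2.08 with NEXN-WT. Of these *S100a9*, an alarmin of neutrophils, read 1.85 on NEXN-S437E 1 and -0.84 and -0.49 on NEXN-S437E 2 and 3. For *S100a8* the readings were -0.47, -3.44 and -2.86 in that order. *Elane* went the other way, at -2.43 on NEXN-S437E 1, the lowest of its group, and -1.81 and -1.62 on NEXN-S437E 2 and 3. The part of array quality and of these markers in the *C2*, *C4b*, *C3* and *Cfb* values was not tested.

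**Figure D2:**
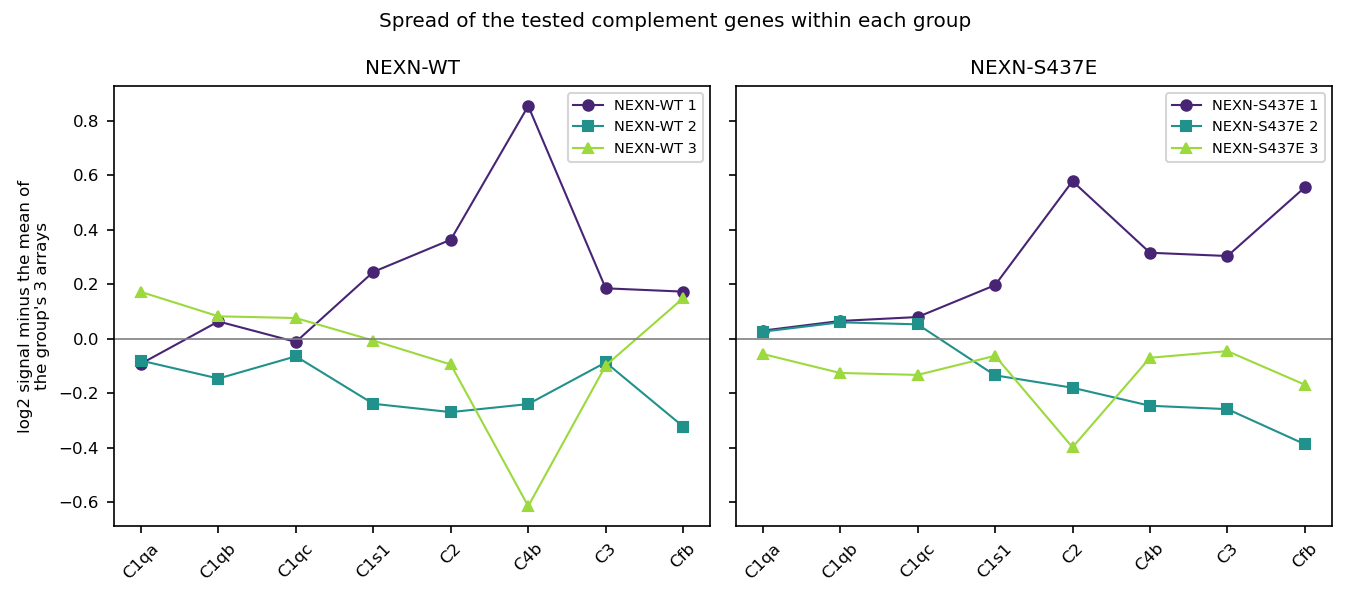
Log2 signal of each array minus the mean of its group's 3 arrays for the 8 tested complement genes, with NEXN-WT on the left and NEXN-S437E on the right and 1 line per array. NEXN-S437E 1 is the top line throughout its panel, by little for the C1q chains and by most for *C2* and *Cfb*, and NEXN-WT 1 is highest from *C1s1* to *Cfb*.

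Within slide row 1, where NEXN-S437E 1 can be set against the 3 NEXN-WT arrays, it was 0.16 above the NEXN-WT mean for *C2*, 0.22 above for *C3*, 0.21 above for *C1qc*, 0.071 above for *C1qb* and 0.018 above for *Cfb*, beside a median of 0.11 over all tested probes. The difference in this row was -0.037 for *C1qa* and -0.28 for *C1s1*, and for *C4b* it was -0.095 on probe A_66_P117032 but 0.21 on probe A_51_P428708. The 2 arrays in row 2 differed from that NEXN-WT mean by -0.70 for *C2*, -0.24 for *C3*, -0.81 for *Cfb*, -0.57 for *C1s1*, -0.57 and -0.45 for the *C4b* probes, -0.081 for *C1qa*, -0.027 for *C1qb* and 0.094 for *C1qc*, beside a median of 0.082. *C1s1*, *C1qa* and *C1qc* kept their sign in both rows, *C4b* did so on 1 of its 2 probes, and *C1qb*, *C2*, *C3* and *Cfb* did not. Row 1 holds 1 NEXN-S437E array, and its differences are the same values as those of the fit with the slide row as a block.

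**Figure D3:**
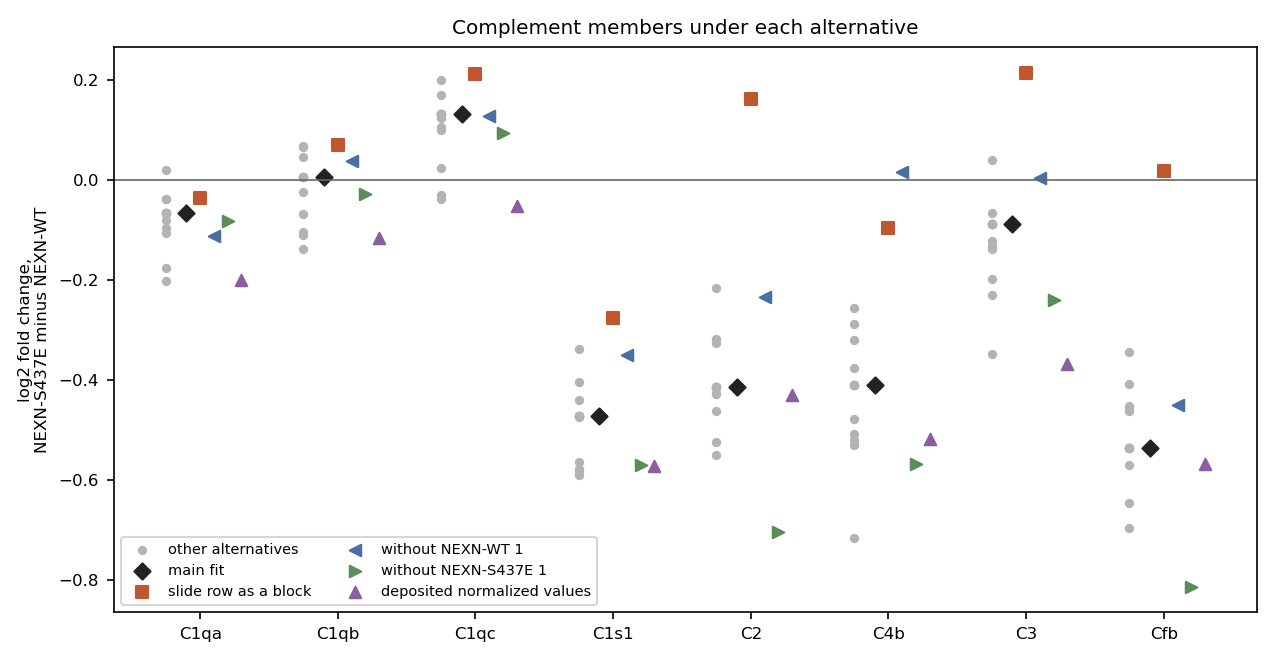
Log2 fold change of the 8 tested complement genes as reported (diamonds) and under each alternative, with the slide row block, the fits without NEXN-WT 1 or NEXN-S437E 1 and the deposited normalized values marked. *C1s1* lies below 0 throughout, between -0.59 and -0.28, whereas *C2*, *C4b*, *C3* and *Cfb* each cross 0 under at least 1 alternative.

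The other complement genes were read in the same fit. Of 49 further genes considered, 48 were on the array and 28 were tested. The study's thresholds called 1 of them higher and 1 lower with NEXN-S437E, beside 0.735% and 1.78% of all tested probes, and the adjusted p called 0. Both calls depend on the filter on dim probes, since neither gene was well above background on all 6 arrays: of the 25 genes that were, 0 were called, beside 0.483% higher and 1.14% lower among such probes. The median log2 fold change of the 28 was 0.065, beside 0.073 over all tested genes.

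Among the initiating factors, the proteases of the C1 complex lay on the same side of 0 as *C1s1*. *C1s2*, the paralog of *C1s1*, read 1.83, 1.21 and 1.41 with NEXN-WT and 1.06, 1.16 and 1.00 with NEXN-S437E, without overlap (log2 fold change -0.41, SE 0.186, adjusted p = 0.304). *C1ra*, which encodes the protease that activates C1s, read 1.39, 0.51 and 0.24 with NEXN-WT and -0.38, 0.36 and 0.051 with NEXN-S437E (log2 fold change -0.70, SE 0.317, adjusted p = 0.302). *Fcna*, a ficolin that starts the lectin pathway, was the gene called higher. It read -5.06, -3.40 and -2.75 with NEXN-WT, where it was well above background on 2 of 3 arrays, and -1.53, -1.49 and -1.86 with NEXN-S437E. The log2 fold change came to 2.11 (SE 0.511, adjusted p = 0.135), and to 1.45 without NEXN-WT 1, the array on which the probe was not well above background.

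Among the regulators, *Serping1*, the C1 inhibitor, read 7.29, 6.89 and 6.80 with NEXN-WT and 6.65, 6.26 and 6.37 with NEXN-S437E, without overlap (log2 fold change -0.57, SE 0.187, unadjusted p = 0.0161, adjusted p = 0.213). With the slide row as a block, again NEXN-S437E 1 alone against the NEXN-WT arrays, it was -0.35. *Cfhr2*, named after its values were seen, had the smallest p of the regulators reported. Its probe A_55_P2098995 read 3.09, 2.73 and 2.59 with NEXN-WT and 2.08, 1.78 and 1.90 with NEXN-S437E, without overlap (log2 fold change -0.88, SE 0.178, adjusted p = 0.109). Its second probe, A_52_P796840, was past the study's thresholds (-1.22, SE 0.320, unadjusted p = 0.00514, adjusted p = 0.156), but the counts use the probe of higher mean. The gene belongs to a family of near-identical genes, so its probes may share targets. *Clu*, which blocks the terminal complex, did not move beyond its spread (log2 fold change 0.11, SE 0.175, adjusted p = 0.754).

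Among the receptors, *Itgax*, the α chain of complement receptor 4, was the gene called lower. It was well above background on all 3 NEXN-WT arrays, at -1.47, -2.33 and -2.41, but on 0 of the NEXN-S437E arrays, so it was tested through the group in which it was higher. The NEXN-S437E arrays read -2.54, -4.08 and -3.63, so NEXN-S437E 1 came close to NEXN-WT 3. The fitted log2 fold change of -1.35 was -1.78 to -1.01 with 1 array left out and -0.47 with the slide row as a block. On the means, its level with NEXN-S437E was at least 2.03-fold lower (adjusted p = 0.193). Such bounds set the NEXN-WT mean against the higher of each NEXN-S437E array's own signal and its dimmest signal well above background. *Cd93* (log2 fold change 0.18, SE 0.189, adjusted p = 0.621) and *Itgam*, the α chain of complement receptor 3 (0.27, SE 0.137, adjusted p = 0.341), did not pass the thresholds. Of the 7 terminal components, *Hc*, *C6*, *C8a*, *C8b* and *C9* were not well above background on any of the 6 arrays. *C8g*, a chain of C8 and likewise named after its values were seen, read -0.62, -0.022 and -0.15 with NEXN-WT and 0.55, 0.36 and 0.43 with NEXN-S437E, without overlap but short of 2-fold (log2 fold change 0.71, SE 0.187, adjusted p = 0.156). The groups overlapped for *C7*, the other terminal component tested (log2 fold change 0.10, SE 0.21, adjusted p = 0.815).

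**Figure D4:**
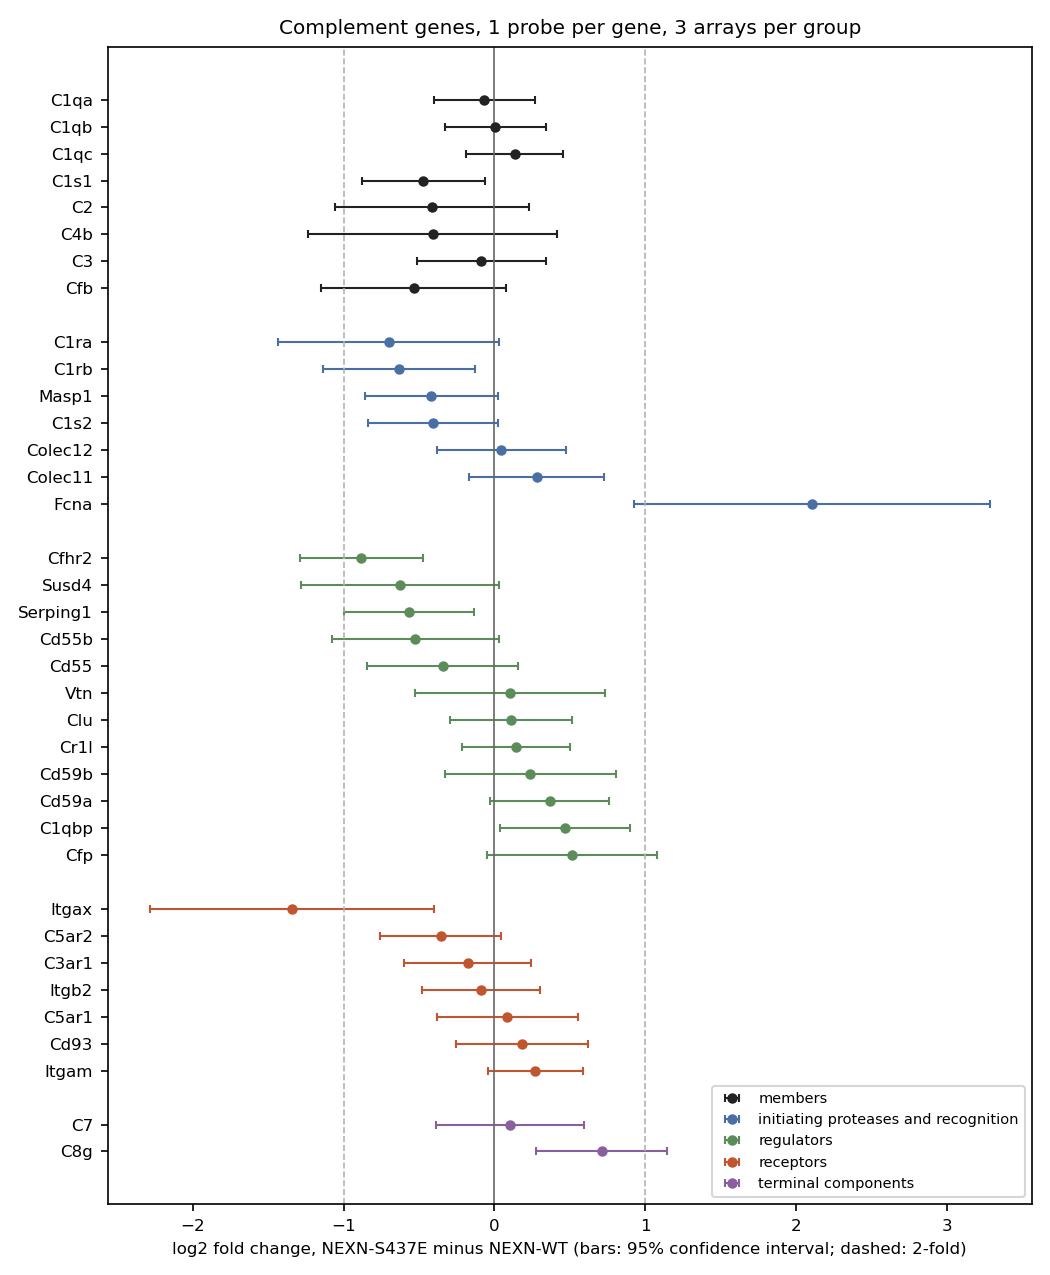
Log2 fold change (NEXN-S437E minus NEXN-WT) with its 95% confidence interval for the 8 tested members and the 28 other tested complement genes, 1 probe per gene, with dashed lines at 2-fold. The intervals of the C1q chains and of *C3* lie inside the dashed lines, and *Itgax* and *Fcna* have estimates beyond them.

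Markers of the cells that may make these proteins moved unevenly. In whole myocardium, fewer cells of a type and less RNA per cell cannot be told apart. For macrophages, the known source of C1q, 0 of 12 tested markers were called and the median log2 fold change was 0.0050. The summed signal of the list, in multiples of each array's 75th percentile, ran from 179 to 239 with NEXN-WT and from 210 to 227 with NEXN-S437E. Bright probes weigh most in such a sum. The brightest here, *Lyz2*, read 7.26, 6.86 and 7.33 with NEXN-WT and 7.08, 7.26 and 7.25 with NEXN-S437E. The smallest p belonged to *Lyve1*, a marker of resident macrophages (log2 fold change 0.83, SE 0.171, adjusted p = 0.111), and *Fcgr1*, an Fc receptor (-0.74, SE 0.206, adjusted p = 0.168), which lay on opposite sides of 0.

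For fibroblasts, which express *C1s1*, *C3* and *C4b*, 4 of 10 tested markers were called lower and 0 higher, with a median of -0.82. Their summed signal was 1250, 934 and 1020 with NEXN-WT and 814 to 853 with NEXN-S437E, and the called markers were highest on NEXN-WT 1. Without that array the number called was again 4. *Col3a1* fell by 1.34 (SE 0.222, adjusted p = 0.0815) and *Col1a1*, a chain of collagen I, fell by 1.82 (SE 0.302, adjusted p = 0.0815) on the log2 scale, both past the study's thresholds. The part of this shift in the *C1s1* and *C4b* values was not tested.

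The interferon-γ response was listed because this cytokine induces *C2*, *C4b* and *Cfb* in many cells. All 16 tested genes of the list had a log2 fold change below 0, beside 39.2% of all tested probes, 2 were called lower, and the median was -0.36. *Tap1*, a peptide transporter of antigen presentation, fell by 1.17 (SE 0.162, adjusted p = 0.0534) on probe A_66_P125929. A second *Tap1* probe of nearly the same mean, A_51_P100327, gave -0.62 (SE 0.240, adjusted p = 0.254) and was not past the thresholds, so this call depends on the probe. *Ciita*, the activator of MHC class II genes, had a value of -0.88 (SE 0.132, adjusted p = 0.0646). *Cxcl10*, the other gene called, fell by 2.17. The summed signal was 89.6 to 113 with NEXN-WT and 74.8 to 89.3 with NEXN-S437E. Its part in the *C2*, *C4b* and *Cfb* values was not tested.

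Several T-cell markers were lower with NEXN-S437E, while the dendritic-cell calls depend on the filter on dim probes. For T cells 4 of 6 tested markers were called lower, and 3 of the 5 that were well above background on all 6 arrays. The smallest p belonged to *Cd3g* (lower by at least 2.18-fold, adjusted p = 0.00112) and *Lck* (log2 fold change -2.07, SE 0.224, adjusted p = 0.0192). For dendritic cells 2 of 3 were called lower, *Cd209a* (lower by at least 1.75-fold, adjusted p = 0.00204) and *Ccr7* (log2 fold change -1.85, SE 0.313, adjusted p = 0.0821), which was well above background on 1 of 3 NEXN-S437E arrays. These were tested through the NEXN-WT arrays, in which they were higher, as was *Cd3g*. *Zbtb46*, the 1 dendritic-cell marker well above background on all 6 arrays, had a log2 fold change of -0.086, while *Clec9a* and *Xcr1* were not well above background on any of the 6 arrays.

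Adipocyte markers bear on *Cfd*. Of 4 tested markers 1 was called higher, *Adig* (log2 fold change 1.51, SE 0.398, adjusted p = 0.156), which was -2.85 on NEXN-WT 1 and was not called without that array. *Fabp4*, which endothelial cells also express, had a value of 0.49 (SE 0.149, adjusted p = 0.192). *Plin1*, *Retn* and *Pck1* were not well above background on any of the 6 arrays. For cardiomyocytes 0 of 10 markers were called, the median was 0.43, and the summed signal was 2530, 3300 and 3400 with NEXN-WT, lowest on NEXN-WT 1, and 3990 to 4160 with NEXN-S437E. The smallest p among them belonged to *Myh6* (log2 fold change 0.58, SE 0.164, adjusted p = 0.176) and *Mb* (0.46, SE 0.158, adjusted p = 0.222). The endothelial (8 tested), neutrophil (3) and hepatocyte (4) lists had 0 genes called, with medians of 0.040, 0.17 and 0.39. Their genes of smallest p were *Emcn* (0.22, adjusted p = 0.524) and *Tek* (-0.16, adjusted p = 0.579) for endothelium, *Elane* (0.41, adjusted p = 0.385) and *S100a9* (0.17, adjusted p = 0.908) for neutrophils, whose summed signal was highest on NEXN-S437E 1, and *Ahsg* (0.47, adjusted p = 0.254) and *Apoa2* (0.31, adjusted p = 0.363) for hepatocytes. *Ngp*, *Camp*, *Retnlg* and *Mpo* of the neutrophil list and *Ttr* and *Fgb* of the hepatocyte list were not well above background on any of the 6 arrays.

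**Figure D5:**
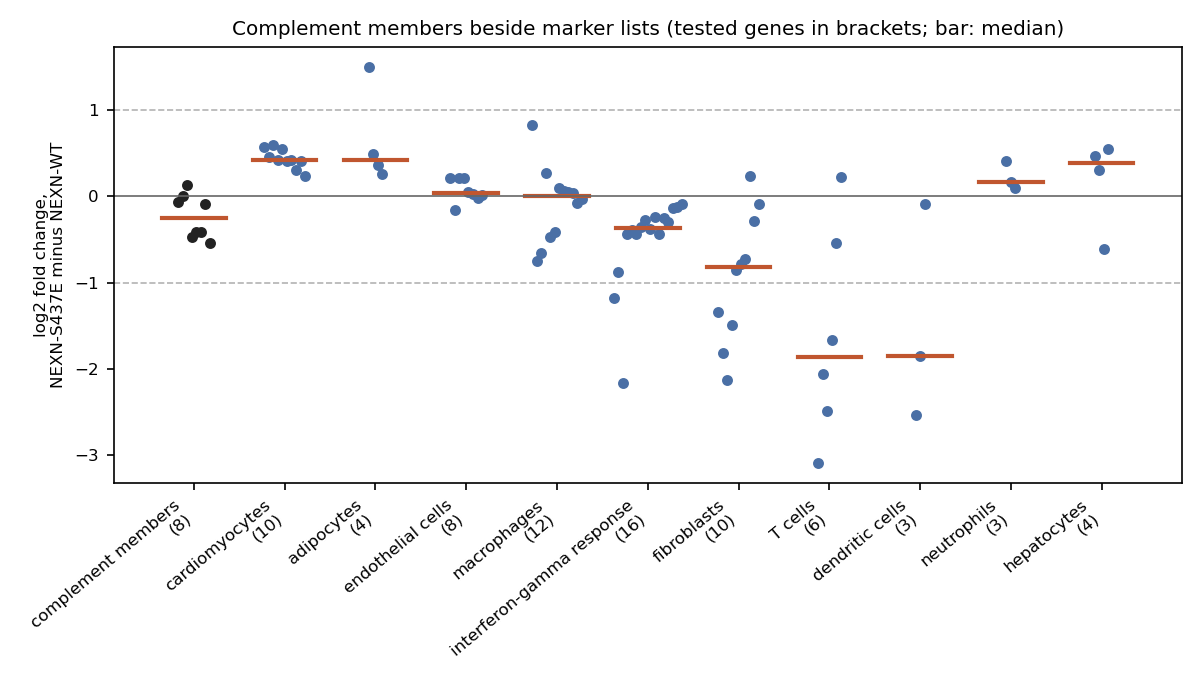
Log2 fold change (NEXN-S437E minus NEXN-WT) of the 8 tested complement members beside each marker list, 1 point per tested gene and a bar at the median, with dashed lines at 2-fold. The complement members lie between -0.54 and 0.13, below the cardiomyocyte markers and above most fibroblast, T-cell and dendritic-cell markers.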

How the data were processed

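Hearts of 6 mice were measured on 1 Agilent SurePrint G3 mouse array each, with 1 dye. The authors extracted the scans with Feature Extraction 10.7.1.1, and the values they deposited per array are intensities, background-subtracted but not normalized between arrays. The log2 values in their summary of the series, also deposited, have identical distributions in all 6 columns, as after quantile normalization, but the method is not given in the sources used here. Coordinates are on mm9. Signals of non-control spots were centred on the array's 75th percentile on the log2 scale, outlier spots were dropped and spots of a probe averaged. A probe was tested if it was well above background on every array of at least 1 group (22998 probes, 21110 of them on all 6 arrays). Between 41.9% and 47.8% of spots were well above background, 0 were saturated, and the number of arrays limits the precision. The comparison was fitted in limma 3.58.1 (lmFit, eBayes; R 4.3.3, with version 1.17.8 of data.table), p-values were adjusted over all tested probes, and figures used Python 3.11.15, pandas 2.3.3 and matplotlib 3.10.9. Scripts were tested on simulated data. A gene's probe is its tested probe of highest mean.

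Named are all member probes, other complement genes past a threshold, the pair of highest mean among receptors, regulators and proteases, and in each marker list the pair of smallest p. *Cxcl10*, *Cfhr2*, *C8g*, *C7*, *Lyz2* and *S100a8* were named after their values were seen. Members and lists were chosen with earlier results of these data known. The alternatives were other scalings, filters, background correction and tests, blocks for replicate number and slide row, and each array left out. 1 gene of the list of other complement genes is not reported here and is left out of that list's counts and median.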

Additional observations from a re-analysis of the deposited data

How the results depend on the processing

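Under all 19 alternatives, 0 of the 8 complement genes passed either threshold, and *C1s1* stayed below 0, from -0.59 to -0.28, with an adjusted p of 0.0688 to 0.628 and an unadjusted p under 0.05 in 12 of them. Taking the percentile over detected probes moved the median of all tested probes by -0.11. Signs turned for small differences: *C1qb* was -0.11 with quantile normalization, -0.10 with the percentile over detected probes, -0.12 with the authors' normalized values and -0.14 with normexp, and *C1qc* was -0.029, -0.051 and -0.038 with quantile normalization, the authors' values and normexp. The slide row block sets NEXN-S437E 1 alone against the NEXN-WT arrays. With it *C2* was 0.16, *C3* 0.22 and 0.072 on its probes, *Cfb* 0.018 and *C4b* A_51_P428708 0.21. With 1 array left out, values ranged from -0.11 to 0.019 for *C1qa*, -0.067 to 0.068 for *C1qb*, -0.72 to 0.016 and -0.45 to 0.090 for the *C4b* probes, and -0.24 to 0.041 for *C3*, which was 0.0044 without NEXN-WT 1. The members with an unadjusted p under 0.05 numbered 2 with the percentile over detected probes, normexp and the replicate block (beside 16.2%, 17.7% and 14.2% of all tested probes). They numbered 3 with array weights (35.1%), 0 with no filter and the methods' t-test, and 0 to 3 with 1 array left out (10.5% to 21.4%). Members without overlap numbered 2 with quantile normalization, the percentile over detected probes and the authors' values (beside 24.9%, 26.2% and 25% of all tested probes), and 1 to 4 with 1 array left out (33.6% to 43.3%), the 4 without NEXN-S437E 1 (41.3%). Called adipocyte markers numbered 0 to 2 and hepatocyte markers 0 to 2 with 1 array left out. Over genes well above background on all 6 arrays, chosen after seeing the data, 0 other complement genes and 0 dendritic-cell markers were called. The cause of the other changes was not tested.

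Deviations of same-numbered arrays correlated at -0.154, -0.0282 and -0.176, and those of differently numbered arrays at -0.0703 to 0.183. The main fit treats the samples as unpaired, but such correlations over few arrays cannot show whether the mice were paired. With the replicate block, 2 members had an unadjusted p under 0.05, *C1s1* at -0.47 (adjusted p = 0.302) and *Cfb* at -0.54 (adjusted p = 0.322), and 0 passed a threshold.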

Other observations

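The genes of most similar pattern were taken by the root mean square difference of centred log2 values over 6 arrays among 12923 genes. For the mean of the C1q chains they were *Tfdp1* (0.0202), *Rtcb* (0.0226), *Mgat3*, *Zmat2* and *Unc50* (0.0329), beside a median of 0.224. For *C1s1* they were *Arhgap6* (0.0421), *Sfxn2*, *Ddx60*, *Evc2* and *Rnf138* (0.0690). For *C4b* they were *Mdfi* (0.0948), *Znf41-ps*, *Scn7a*, *Slfn8* and *AI661453* (0.161), and for *C3* they were *Trove2* (0.0511), *Ccdc66*, *Brca2*, *Mocos* and *Peli1* (0.0631). *C2* (first *Lrrc49*, 0.0805) and *Cfb* (first *Afap1l2*, 0.0842) had *Slc15a3* among their 5 in common.

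RefSeq promoter windows on GRCm38.p6 were at hand for 6 promoters of 5 members (*C1qb*, *C1qc*, *C1s1*, *C3* and *Cfd*). Of the motifs GAAANNGAA, TTCNNNGAA, GGGNNTTTC and TTGCGCAA, searched on both strands, 0 of the 6 held any, beside 8.56%, 8.3%, 4.36% and 0.183% of all 32851 windows.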
